A study of Mus musculus with 9 samples.

Results

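ERK response and feedback genes are genes whose transcripts are commonly read as the output of FGF signalling through the kinase ERK. They are Spry1, Spry2, Spry4, Spred1, Dusp4, Dusp6, Etv1, Etv4, Etv5 and Egr1, and all 10 were found among the 23453 gene symbols of the count table. They were chosen by name, with earlier results of these data known. Their transcripts were followed by bulk RNA-seq in 3 states of mouse cells, with 3 replicate libraries for each state (9 libraries). EpiLCs (epiblast-like cells, a culture model of the epiblast after implantation) were grown from naive ESCs for 48 h in N2B27 medium with 1% KSR, a serum replacement, FGF2 and Activin A. aEpiLCs were EpiLCs kept for a further 24 h in N2B27 without FGF2 or Activin A, and the study's methods give 1% KSR for this medium too. pEpiLCs were EpiLCs kept for a further 24 h in N2B27 with 1% KSR, Activin A and 3 µM CHIR99021, an agonist of the WNT/β-catenin pathway, and without FGF2. FGF2 was thus absent from both later media, and the question put to the 10 genes was how a read-out of FGF2 looked a day after its withdrawal. The loss of FGF2 cannot be told apart here from 24 h of extra culture, nor from the loss of Activin A in aEpiLC or the addition of CHIR99021 in pEpiLC. The study calls the cells wild-type, and neither the line nor whether the libraries of a state came from separate cultures is given in the sources used here, so p-values measure the spread between these libraries only.

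FGF receptors activate RAS, then the kinases RAF, MEK and ERK, and ERK phosphorylates transcription factors that switch on early response genes. Several of those genes encode inhibitors of the same cascade, so that a rise in signalling raises its own brakes. FGF-ERK signalling is needed for mouse pluripotent cells to leave the naive state, and it is also used in the primitive streak when mesoderm forms. The inhibitors among the 10 are the Sprouty proteins (Spry1, Spry2, Spry4) and Spred1, which act on the route to RAS and RAF, and the phosphatases Dusp4 and Dusp6, which remove phosphate from MAP kinases. Etv1, Etv4 and Etv5 form the PEA3 group of ETS transcription factors, and Egr1 encodes a zinc finger factor of the immediate early class.

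The libraries held between 20560564 and 23417917 counts, and 3 counts, taken as the limit of detection, corresponded to 0.130 to 0.143 CPM (counts scaled to library size by edgeR's TMM method). pEpiLC replicate 1 stood apart from the other libraries of its state, with 324 and 333 genes more than 4-fold from replicates 2 and 3, against 66 between those and 57 to 76 within the other states. The summed level of 5 posterior and mesoderm markers (T, Mixl1, Eomes, Mesp1, Snai1) was 2247 CPM in it, against 496 and 485 CPM in pEpiLC replicates 2 and 3 and at most 9.38 CPM in the other states. The 5 epiblast markers (Pou5f1, Fgf5, Otx2, Dnmt3b, Utf1) summed to 4302 to 4562 CPM in EpiLC, 3896 to 4152 CPM in aEpiLC and 1791 to 3020 CPM in pEpiLC, lowest in pEpiLC replicate 1. From EpiLC to pEpiLC the mean of Dnmt3b went from 2697 to 1244 CPM and that of Utf1 from 468.8 to 76.2 CPM. Otx2 went from 94.9 to 69.9 CPM and Pou5f1 from 1128 to 953.7 CPM, while Fgf5 rose from 85.3 to 168.0 CPM. The 6 of 8 extraembryonic endoderm markers with a symbol in the table summed to 70.1 CPM in pEpiLC replicate 1 and to 6.71 to 16.0 CPM in the other 8 libraries, and for 6 of 8 feeder fibroblast markers the sums were 63.9 and 33.2 to 44.7 CPM. In pEpiLC replicate 1, Gata6 (46.5 CPM), Gata4 (12.3) and Sox17 (4.67) lay above all EpiLC libraries, and Dab2 (5.91), Cubn (0.620) and Apoa1 (0) did not. Of the fibroblast markers, Fbn1 (44.2) and Col1a2 (10.2) lay above all EpiLC libraries in it. Thy1 (7.96), Col1a1 (1.38), Dcn (0.238) and Col3a1 (0) lay below all of them. The 5 neural markers were Sox1, Pax6, Sox3, Pou3f1 and Nes. They summed to 313 to 389 CPM in EpiLC, 519 to 620 in aEpiLC and 164 to 263 in pEpiLC. In aEpiLC Nes averaged 310.9 CPM against 98.1 CPM in EpiLC, and Pou3f1 203.1 against 204.4. The 5 naive pluripotency markers (Klf4, Zfp42, Esrrb, Tfcp2l1, Klf2) summed to 30.1 to 34.1, 17.8 to 19.2 and 23.1 to 25.8 CPM. In aEpiLC Zfp42 averaged 7.61 CPM against 19.1 CPM in EpiLC, and Klf2 3.13 against 1.52. No marker of these lists was at 0 in all libraries of a state. The part of these markers in the results was not tested, and several values are given below with and without pEpiLC replicate 1. In bulk RNA a change in the number of cells that express a gene and a change in its RNA per cell cannot be told apart.

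Promoter sequence was at hand for 6 of the 10 genes, as 8 windows of the 250 bases before an annotated start in RefSeq on GRCm38.p6. Shown are Spred1 and Spry2, the genes that rose in pEpiLC, and Dusp6, whose libraries in pEpiLC were spread the widest in CPM of all 10. The capitals mark GGAA, or TTCC where it lies on the other strand, the core that ETS factors such as Etv1, Etv4 and Etv5 bind. The windows lie at chr2:117120821-117121070 on the plus strand for Spred1, chr14:105896820-105897069 on the minus strand for Spry2 and chr10:99262981-99263230 on the plus strand for Dusp6, and none of these bases is an annotated exon.
Spred1: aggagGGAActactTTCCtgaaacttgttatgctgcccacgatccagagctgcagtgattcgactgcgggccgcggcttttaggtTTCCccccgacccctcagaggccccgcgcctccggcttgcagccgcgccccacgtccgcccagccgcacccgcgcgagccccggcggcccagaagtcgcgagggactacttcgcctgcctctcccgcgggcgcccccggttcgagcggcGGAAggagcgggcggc
Spry2: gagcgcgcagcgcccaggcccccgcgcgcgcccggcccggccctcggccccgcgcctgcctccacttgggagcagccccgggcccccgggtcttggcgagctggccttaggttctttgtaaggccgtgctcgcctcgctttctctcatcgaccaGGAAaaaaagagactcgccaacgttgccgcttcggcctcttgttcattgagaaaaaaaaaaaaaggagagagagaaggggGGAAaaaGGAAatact
Dusp6: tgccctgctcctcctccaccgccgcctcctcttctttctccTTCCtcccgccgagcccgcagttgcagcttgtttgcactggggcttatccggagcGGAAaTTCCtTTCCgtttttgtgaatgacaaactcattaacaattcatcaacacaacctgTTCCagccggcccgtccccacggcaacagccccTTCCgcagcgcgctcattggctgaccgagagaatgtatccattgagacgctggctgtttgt
The core was found 4 times in the Spred1 window, 3 times in the Spry2 window and 6 times in the Dusp6 window, where GC content was 70.8%, 62.4% and 56.4%. It was found in 7 of the 8 windows of the 6 genes searched, and 93.4% of 32851 windows of the same length hold it, with a median of 3 matches. Of the longer motifs searched on both strands, CCGGAAGT (2.88% of all windows, and itself holding GGAA), the CIC octamer TGAATGAA (1.08%), the CRE TGACGTCA (1.55%), the AP-1 site TGANTCA (6.75%), the EGR site GCGNGGGCG (4.70%) and the CArG box (1.47%) matched none of the 8 windows. The TCF/LEF core CTTTGA, found in 13.8% of all windows, matched 1 of the 8, at the more upstream start of Etv1. A match in these letters is a description and not a binding site.

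A day after FGF2 was withdrawn the 10 genes had not fallen together. Between aEpiLC and EpiLC none of the 10 passed the limits of a call, an adjusted p below 0.05 (edgeR's quasi-likelihood test, Benjamini-Hochberg over all genes tested) and a change of at least 2-fold, where 12.5% of 15301 genes tested did (7.25% higher and 5.24% lower). DESeq2 also called 0 of 10, and 7 of 10 had an unadjusted p below 0.05, against 53.6% of all genes. With the adjusted p alone, 3 were higher in aEpiLC (Spry2, Spred1, Dusp4; background 24.0%) and 3 were lower (Etv1, Etv4, Etv5; background 22.6%). The libraries did not overlap between aEpiLC and EpiLC for 7 of the 10, against 56.3% of all genes. Between pEpiLC and EpiLC, Spry2 and Spred1 rose and none fell, where 7.71% of 15288 genes were called higher and 8.13% lower (15.8% in all). DESeq2 likewise called 2 higher and 0 lower, and 6 of 10 had an unadjusted p below 0.05, against 52.7%. With the adjusted p alone, 3 were higher in pEpiLC (Spry2, Spred1, Etv1; background 22.8%) and 3 were lower (Spry1, Dusp4, Etv5; background 21.4%), and libraries did not overlap for 6 of 10, against 58.7%. Both comparisons share the 3 EpiLC libraries. Between pEpiLC and aEpiLC, Dusp4 fell and none rose, where 2.55% of 15198 genes were called higher and 4.74% lower (7.29% in all). DESeq2 likewise called 0 higher and 1 lower, and 6 of 10 had an unadjusted p below 0.05, against 31.0%. There, 2 were higher by the adjusted p alone (Spred1, Etv1; background 6.28%) and 1 was lower (Dusp4; background 9.30%), and libraries did not overlap for 5 of 10, against 38.8%. These shares are those of 10 genes, and they are counts, not a test of the group. The median log2 fold change of the 10 was 0.071, 0.32 and 0.22 in the 3 comparisons, against 0.0023, 0.017 and 0.012 for all genes tested.

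**Figure D1:**
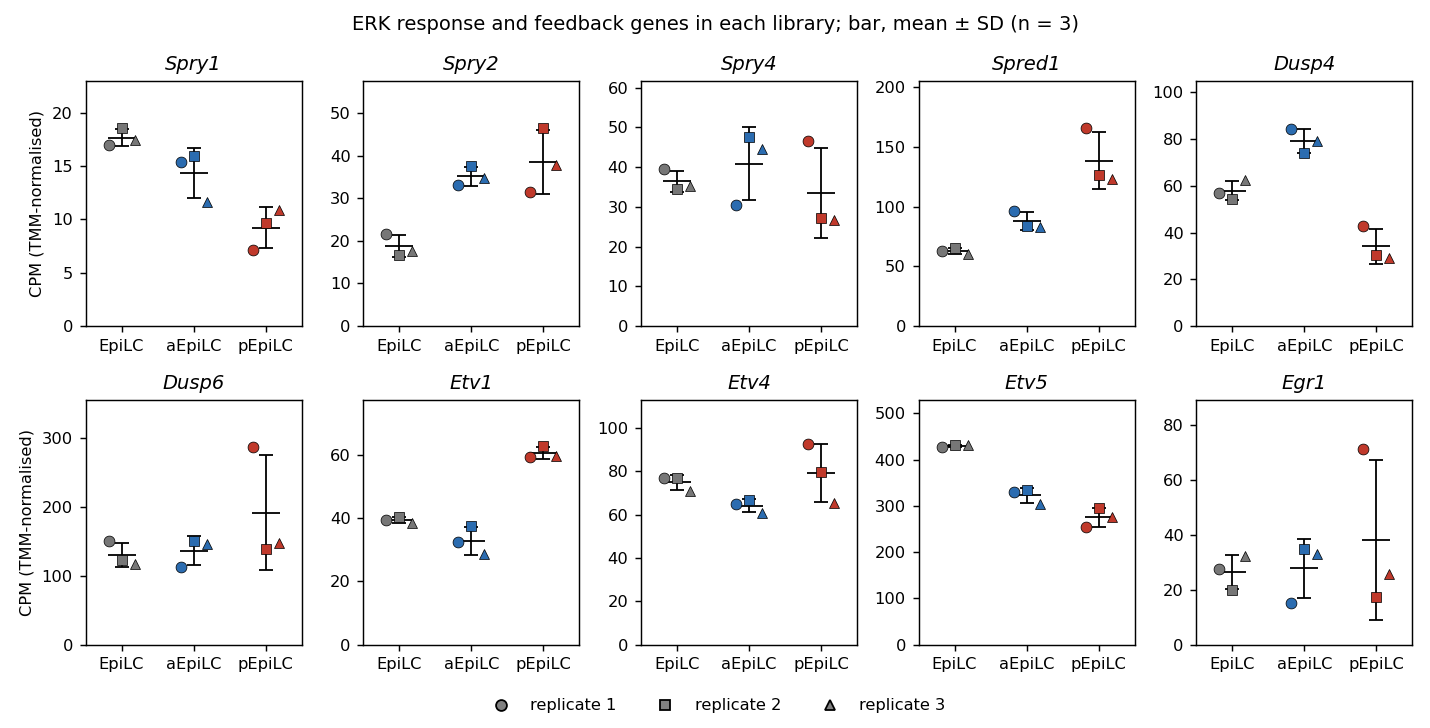
CPM (y axis, TMM-normalised, each panel from 0) of the 10 ERK response and feedback genes in EpiLC, aEpiLC and pEpiLC, with the horizontal bar and whiskers giving mean ± SD (n = 3) and a marker shape for each replicate. Dusp4 lay between 74.1 and 84.5 CPM in aEpiLC and between 28.9 and 42.8 CPM in pEpiLC, while for Dusp6 and Egr1 pEpiLC replicate 1 lay above the other 8 libraries.

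The Sprouty and Spred inhibitors went different ways. Spry2 (chr14:105891947-105896819 on GRCm38) had 21.7, 16.8 and 17.7 CPM in EpiLC replicates 1 to 3, 33.2, 37.7 and 34.8 CPM in aEpiLC and 31.5, 46.5 and 37.7 CPM in pEpiLC. All 6 later libraries lay above the 3 EpiLC libraries, and the later states overlapped each other. Its mean was 18.7 ± 2.61, 35.2 ± 2.26 and 38.5 ± 7.53 CPM (SD, n = 3). Relative to EpiLC the log2 fold change was 0.91 (SE 0.102, adjusted p = 9.85e-06) in aEpiLC and 1.06 (SE 0.161, adjusted p = 0.00196) in pEpiLC. Both changes lie near the 2-fold limit. The pEpiLC call was lost without pEpiLC replicate 2 (0.91) or EpiLC replicate 2 (0.99), and without EpiLC replicate 1 the aEpiLC change passed it (1.03), with adjusted p at most 0.0145 in any alternative. Between pEpiLC and aEpiLC the log2 fold change of Spry2 was 0.13 (95% confidence interval -0.20 to 0.46, adjusted p = 0.577).

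Spred1, whose product restrains RAS together with neurofibromin, had 62.8, 65.1 and 60.6 CPM in EpiLC, 96.7, 83.8 and 82.9 CPM in aEpiLC and 165.9, 126.7 and 123.4 CPM in pEpiLC (chr2:117121374-117182279). The 3 states did not overlap, with EpiLC lowest and pEpiLC highest. Relative to EpiLC the log2 fold change was 0.48 (SE 0.0718, adjusted p = 0.000112) in aEpiLC and 1.17 (SE 0.116, adjusted p = 0.000408) in pEpiLC, a 2.21-fold rise of the mean in the latter. It remained 1.02 without pEpiLC replicate 1, the highest library. Between pEpiLC and aEpiLC the difference was 0.66 (SE 0.127, adjusted p = 0.0143), with an adjusted p of 0.0735 without aEpiLC replicate 2 and 0.0655 without aEpiLC replicate 3.

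Spry1 (chr3:37639947-37644598) had 17.0, 18.6 and 17.4 CPM in EpiLC, 15.4, 16.0 and 11.6 CPM in aEpiLC and 7.10, 9.69 and 10.9 CPM in pEpiLC. Here the states did not overlap in the opposite order to Spred1, with pEpiLC lowest. In pEpiLC the log2 fold change from EpiLC was -0.91 (SE 0.165, adjusted p = 0.00405), under the 2-fold limit with all libraries and past it without pEpiLC replicate 3 (-1.04). It was -0.30 (adjusted p = 0.0625) in aEpiLC from EpiLC and -0.63 (adjusted p = 0.0686) in pEpiLC from aEpiLC, where DESeq2 (0.0258), edgeR's likelihood ratio test (0.0358), all 9 libraries in 1 fit (0.0232) and leaving out pEpiLC replicate 1 (0.0496) gave an adjusted p below 0.05. Spry1 shares 710 exon bases with the gene model Gm42922 on the other strand, and since no strand setting is given in the sources used here, their reads cannot be told apart. Spry4 (chr18:38586247-38601415) had 39.5, 34.5 and 35.1 CPM in EpiLC, 30.5, 47.6 and 44.5 CPM in aEpiLC and 46.4, 27.2 and 26.7 CPM in pEpiLC. Its states overlapped, and the odd library was replicate 1 both times, low in aEpiLC and high in pEpiLC. With all libraries the log2 fold change was 0.17 (95% confidence interval -0.11 to 0.45, adjusted p = 0.304) in aEpiLC and -0.097 (-0.59 to 0.39, adjusted p = 0.734) in pEpiLC, both against EpiLC. Without pEpiLC replicate 1, Spry4 was lower in pEpiLC than in EpiLC by a log2 fold change of -0.40 (adjusted p = 0.00103) and than in aEpiLC by -0.59 (adjusted p = 0.0185). Without aEpiLC replicate 1, Spry4 was instead higher in aEpiLC than in EpiLC, by 0.35 (adjusted p = 0.00527).

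The phosphatases also differed. Dusp4, a nuclear phosphatase of MAP kinases (chr8:34807297-34819894), had 56.9, 54.5 and 62.4 CPM in EpiLC, 84.5, 74.1 and 79.0 CPM in aEpiLC and 42.8, 30.5 and 28.9 CPM in pEpiLC. No 2 states overlapped, and EpiLC lay between the later states. From EpiLC the log2 fold change was 0.45 (SE 0.0729, adjusted p = 0.000220) in aEpiLC and -0.74 (SE 0.152, adjusted p = 0.00661) in pEpiLC, each under 2-fold. Between the later states Dusp4 fell by 1.22 on the log2 scale in pEpiLC (SE 0.152, adjusted p = 0.00253), so that its mean was 2.32-fold lower, 34.1 ± 7.64 against 79.2 ± 5.20 CPM (SD, n = 3). This call was made in each of the 13 alternatives tried, with values from -1.41 to -1.11, the former without pEpiLC replicate 1.

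Dusp6, the cytoplasmic phosphatase of ERK that is widely used as a reporter of FGF signalling (chr10:99263231-99267489), had 150.1, 122.6 and 116.8 CPM in EpiLC, 112.4, 150.5 and 146.6 CPM in aEpiLC and 287.4, 138.8 and 147.7 CPM in pEpiLC. The states overlapped, and pEpiLC replicate 1 lay far above the other 8 libraries, which reached at most 150.5 CPM. The log2 fold change from EpiLC was 0.075 in aEpiLC (95% confidence interval -0.16 to 0.31, adjusted p = 0.602), an interval that leaves room for neither a 2-fold rise nor a 2-fold fall. In pEpiLC it was 0.58 (-0.042 to 1.21, adjusted p = 0.115), and 0.17 (adjusted p = 0.117) without pEpiLC replicate 1. Between pEpiLC and aEpiLC it was 0.49 (adjusted p = 0.271), and 0.075 without that library.

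Among the PEA3 factors, Etv5 was lower in both later states, Etv1 was higher in pEpiLC, and the differences of Etv1 and Etv4 in aEpiLC were small. Etv5 (chr16:22381309-22439719) had 427.7, 431.2 and 432.1 CPM in EpiLC, 330.9, 333.3 and 303.4 CPM in aEpiLC and 253.5, 294.8 and 276.0 CPM in pEpiLC. All 6 later libraries were below EpiLC, and pEpiLC was below aEpiLC without overlap. The log2 fold change from EpiLC was -0.41 (SE 0.0569, adjusted p = 5.99e-05) in aEpiLC and -0.62 (SE 0.0626, adjusted p = 0.000412) in pEpiLC, or means 1.33-fold and 1.57-fold lower, both under the 2-fold limit. Its pEpiLC and aEpiLC values differed by -0.23 (adjusted p = 0.0805, and 0.0289 with all 9 libraries in 1 fit). Etv1 (chr12:38779380-38870484) had 39.5, 40.3 and 38.5 CPM in EpiLC, 32.4, 37.5 and 28.7 CPM in aEpiLC and 59.3, 63.0 and 59.9 CPM in pEpiLC. It was highest in pEpiLC and lowest in aEpiLC, again with no overlap of states. Fitted from EpiLC, it was 0.65 on the log2 scale (SE 0.0638, adjusted p = 0.000389) in pEpiLC and -0.26 (SE 0.0914, adjusted p = 0.0321) in aEpiLC, and 0.89 (SE 0.107, adjusted p = 0.00220) between pEpiLC and aEpiLC. The small aEpiLC difference of Etv1 had an adjusted p above 0.05 without aEpiLC replicate 1 or 3 or without any 1 of the EpiLC libraries (up to 0.118). Etv4 (chr11:101769742-101785371) had 77.0, 76.7 and 70.8 CPM in EpiLC, 64.7, 66.5 and 60.6 CPM in aEpiLC and 92.4, 79.7 and 65.4 CPM in pEpiLC. Its aEpiLC libraries lay below all EpiLC libraries and its pEpiLC libraries spanned both states. The log2 fold change was -0.22 in aEpiLC (SE 0.0655, adjusted p = 0.0128), and 0.10 in pEpiLC (adjusted p = 0.505). The aEpiLC difference of Etv4 had an adjusted p of 0.130 with all 9 libraries in 1 fit, 0.0521 without EpiLC replicate 1 and 0.0529 without EpiLC replicate 2. In aEpiLC only Etv5 of the 3 PEA3 genes was thus below EpiLC at the p limit in each alternative, by less than 2-fold, while in pEpiLC Etv5 was lower, Etv1 was higher and Etv4 had no difference past the limit.

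Egr1 (chr18:34859823-34864984) had a wider range within each state than between the means of the states. It had 27.3, 19.8 and 32.2 CPM in EpiLC, 15.2, 34.8 and 33.1 CPM in aEpiLC and 71.2, 17.4 and 25.5 CPM in pEpiLC. Its means were 26.5 ± 6.23, 27.7 ± 10.9 and 38.0 ± 29.0 CPM (SD, n = 3). The lowest aEpiLC library was replicate 1, and pEpiLC replicate 1 was 3.32-fold above the mean of replicates 2 and 3. The log2 fold change was 0.066 (95% confidence interval -0.45 to 0.58, adjusted p = 0.840) in aEpiLC and 0.54 (-0.57 to 1.66, adjusted p = 0.387) in pEpiLC, both from EpiLC. Without pEpiLC replicate 1 the latter was -0.28, so no direction can be given for Egr1 at this spread.

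**Figure D2:**
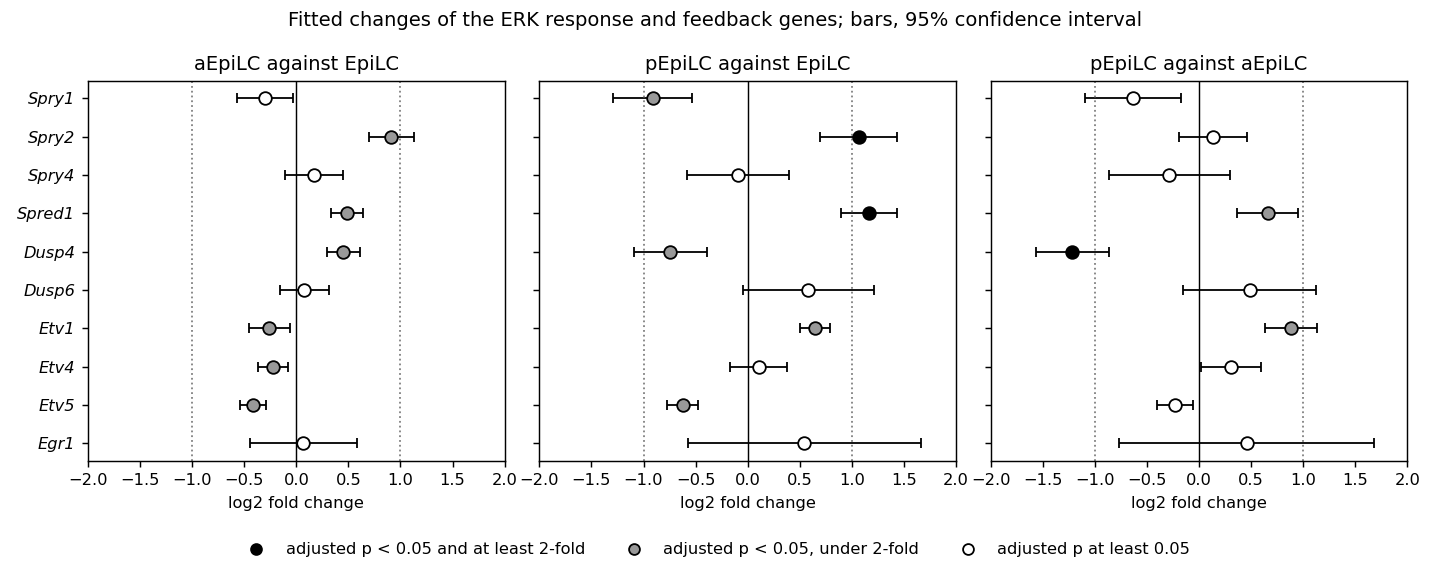
Fitted log2 fold change (x axis) of each gene (y axis) in the 3 comparisons, with bars for the 95% confidence interval, black points for an adjusted p below 0.05 and at least 2-fold, grey points for the adjusted p alone and white points for neither. Black points are Spry2 (1.06) and Spred1 (1.17) in pEpiLC against EpiLC and Dusp4 (-1.22) in pEpiLC against aEpiLC, and the intervals of Dusp6 and Egr1 in pEpiLC are the widest.

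pEpiLC replicate 1 was the highest library of its state for 6 of the 10 genes and the lowest for the other 4, where it was highest for 40.9% and lowest for 42.5% of all genes. Against the mean of replicates 2 and 3 it was 3.32-fold for Egr1, 2.01-fold for Dusp6, 1.72-fold for Spry4, 1.44-fold for Dusp4, 1.33-fold for Spred1 and 1.27-fold for Etv4. It was below them for Spry1 (0.690-fold), Spry2 (0.747-fold), Etv5 (0.888-fold) and Etv1 (0.966-fold). So the library with the most T and Mixl1 RNA also had the most Egr1 and Dusp6 RNA, a single library in which the part of the mesoderm markers was not tested. In aEpiLC, replicate 1 was the lowest library for Egr1, Spry4 and Dusp6, with the mean of replicates 2 and 3 being 2.24-fold, 1.51-fold and 1.32-fold above it. In the same library 11 of 16 other immediate early and ERK-responsive genes that passed the filter were lowest (68.8%, against 34.5% of all genes), a pattern chosen after its values were seen. Of the 10 genes, 4 were lowest in it (40%), near that share, and aEpiLC replicate 2 was the highest library for 8 of the 10 (80%, against 29.8% of all genes).

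Per kilobase of exon, Etv5 was the highest of the 10 in EpiLC at 104.9 CPM per kb, followed by Dusp6 (41.4), Etv4 (24.1) and Dusp4 (21.1), each apart from the next. Spred1 (9.26), Spry2 (8.97) and Spry4 (7.65) came next, where each overlapped its neighbour, then Spry1 (6.08) and Egr1 (5.90), which overlapped, and Etv1 (2.97). The length used joins the exons of all annotated transcripts, which for Etv1 are 13 transcripts and 13.3 kb, the longest of the 10. In CPM the EpiLC mean of Etv1 (39.4) was above those of Spry1, Spry2, Spry4 and Egr1. In aEpiLC, Dusp4 (28.9) stood above Etv4 (20.6) and Spry2 (16.9) above Spred1 (12.9), all without overlap. In pEpiLC, Etv5 (67.0) and Dusp6 (61.1) overlapped at the top. Below them Etv4 (25.5), Spred1 (20.4), Spry2 (18.5), Dusp4 (12.4), Egr1 (8.48) and Spry4 (7.04) formed a run in which neighbours overlapped. Etv1 (4.57) and Spry1 (3.18) were apart from their neighbours at the bottom, in the reverse of their EpiLC order.

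**Figure D3:**
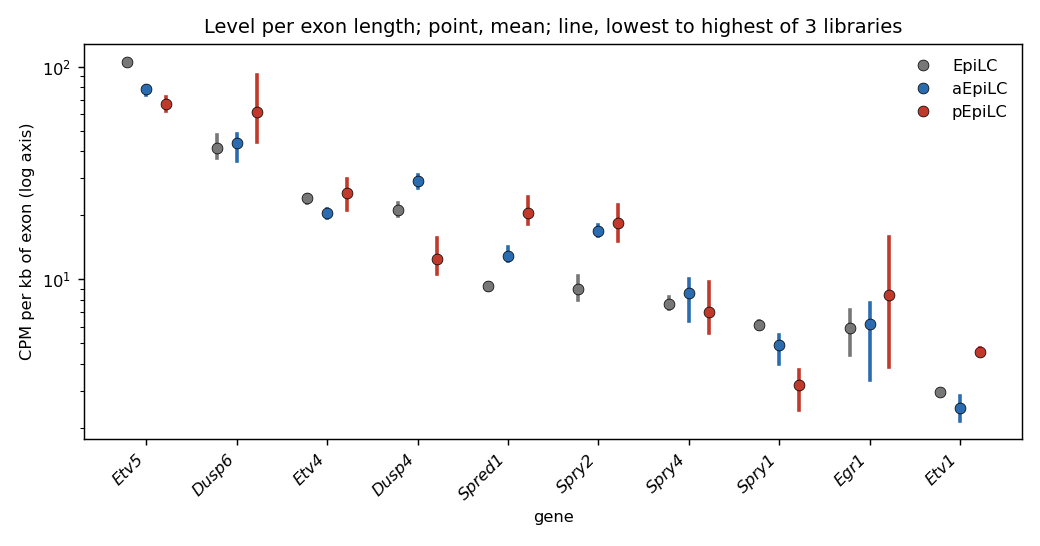
Level of each gene (x axis) in CPM per kb of exon on a log axis (y axis), with a point for the mean of a state and a line from its lowest to its highest library (n = 3). Etv5 has the highest mean in each state, from 104.9 in EpiLC to 67.0 CPM per kb in pEpiLC, where its line overlaps that of Dusp6, and the pEpiLC line of Egr1 is the longest.

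Across the 9 libraries the 10 genes shared no single profile. Of the 45 pairs, 21 had a positive Pearson r of log2 CPM and 24 a negative one, with a median of -0.019. The r ran from -0.95 for Dusp4 with Etv1 to 0.90 for Spry1 with Etv5, and Dusp6 went with Egr1 at 0.84 and Egr1 with Spry4 at 0.74. These values are over 9 libraries in 3 states, which share media and, for Egr1, Dusp6 and Spry4, the displaced replicate 1 libraries, and they are given as a description. Among 10720 other genes with a mean of at least 5 CPM, those most like the mean profile of the 10 were Pex26 (r = 0.92), N6amt1 (0.91), Lrfn4 (0.91), Sgta (0.90) and Zfp395 (0.89). Those most like Dusp6 were Brf1 and Slit2 (both 0.95), Zfp653, Acbd3 and Hacd1 (each 0.94).

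The rest of the pathway was read from lists of other genes. Of 22 components of the cascade from adaptor to ERK and its RSK kinases, 0 were called higher (edgeR's quasi-likelihood test and DESeq2; 1 at an unadjusted p below 0.05) and 2 lower in aEpiLC than EpiLC, against 7.25% and 5.24% of all genes. Gab1, a docking adaptor of receptor tyrosine kinases, fell from 260.7 ± 8.65 to 96.1 ± 18.9 CPM (SD, n = 3; log2 fold change -1.44, adjusted p = 2.53e-07). In pEpiLC against EpiLC, 1 component was called higher and 1 lower, against 7.71% and 8.13% of all genes, where Rps6ka3, an ERK-activated kinase, rose (1.18, adjusted p = 0.00174) and Gab1 fell (-1.59, adjusted p = 0.000209). The call of Rps6ka3 was lost without pEpiLC replicate 1 (0.96). None of the 22 was called between pEpiLC and aEpiLC by edgeR's quasi-likelihood test, or by DESeq2, against 2.55% of all genes called higher and 4.74% lower, and 2 were higher and 1 lower at an unadjusted p below 0.05 (31.0% of all genes in either direction). By the adjusted p alone, 1 of the 22 was higher and 8 were lower in aEpiLC than EpiLC (background 24.0% and 22.6%). In pEpiLC against EpiLC 4 were higher and 8 lower (background 22.8% and 21.4%). Between pEpiLC and aEpiLC 1 was higher and 1 lower (background 6.28% and 9.30%). The median log2 fold change of the 22 was -0.12, -0.16 and 0.075 in the 3 comparisons.

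Of 17 other inhibitors and phosphatases, 1 was called higher and 1 lower in aEpiLC, 2 higher and 1 lower in pEpiLC, each against EpiLC, and 2 higher and 0 lower in pEpiLC against aEpiLC. In the last comparison 1 was called lower by DESeq2, the likelihood ratio test, the filter of 10 counts, all 9 libraries in 1 fit, the replicate block and without aEpiLC replicate 1, and 2 without pEpiLC replicate 1, and 6 were lower there at an unadjusted p below 0.05. Dusp10 (-0.99) passed the 2-fold limit there with the filter of 10 counts (-1.003) and without pEpiLC or aEpiLC replicate 1 (-1.09 each), and Dusp8 (-1.41) missed the p limit (adjusted p = 0.0654). Over all genes 7.25% and 5.24%, 7.71% and 8.13%, and 2.55% and 4.74% were called higher and lower, so the shares of these 17 lie near the background in the comparisons with EpiLC. Il17rd (Sef), which dampens FGF receptor signalling, had 54.7, 49.9 and 61.1 CPM in EpiLC, 92.1, 70.9 and 55.9 CPM in aEpiLC and 315.1, 268.5 and 243.0 CPM in pEpiLC. It rose in pEpiLC by a log2 fold change of 2.34 from EpiLC (SE 0.116, adjusted p = 2.75e-05) and 1.92 from aEpiLC (SE 0.184, adjusted p = 0.000832). Lrig1, an inhibitor of receptor tyrosine kinases, rose by 2.25 and 1.87 (adjusted p = 0.00102 and 0.00616; 1.83 and 1.45 without pEpiLC replicate 1), with 80.0, 43.1 and 35.8 CPM in pEpiLC against 11.1 to 11.4 CPM in EpiLC. Both were above all libraries of the other states in each pEpiLC library. Dusp9, a phosphatase of ERK, fell in aEpiLC from 163.8 ± 11.5 to 52.0 ± 1.91 CPM (-1.65, adjusted p = 2.39e-09) and in pEpiLC to 77.9 ± 10.6 CPM (-1.05, adjusted p = 0.000404), the latter under the 2-fold limit without pEpiLC replicate 2 (-0.99) or 3 (-0.996). Dusp10, which acts mainly on JNK and p38, rose in aEpiLC by 1.01 (adjusted p = 0.000195), at the edge of the limit: the call was lost with RLE size factors (0.9998) and without aEpiLC replicate 2 (0.96) or 3 (0.97) or EpiLC replicate 1 (0.86). The median of the 17 was 0.0999, 0.032 and -0.081.

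Of 17 other immediate early and ERK-responsive genes, 15 passed the filter on low counts in aEpiLC against EpiLC and 16 in the other comparisons. In aEpiLC, 3 were called higher and 1 lower, against 7.25% and 5.24% of all genes. Jun rose from 20.4 ± 2.22 to 44.6 ± 8.98 CPM (SD, n = 3; 1.13, adjusted p = 1.18e-05) and Fosl2 from 2.54 ± 0.764 to 5.99 ± 1.22 CPM (1.24, adjusted p = 0.000708), both genes of AP-1 subunits. Egr2 rose at low counts, from 0.406 to 1.25 CPM (1.60, adjusted p = 0.0238), with an adjusted p of up to 0.102 when any 1 of aEpiLC replicates 2 and 3 or EpiLC replicates 1 and 2 was left out. Its libraries overlapped, with 0.233 to 0.703 CPM in EpiLC and 0.469 to 1.84 CPM in aEpiLC. Egr2 passed the filter on low counts here by its aEpiLC libraries, so its call is no support for this list. Myc fell by 1.10 on the log2 scale (adjusted p = 1.23e-06), and without aEpiLC replicate 3 the changes of Myc (-0.99) and Jun (0.96) were under the limit. Without aEpiLC replicate 1, 6 of these genes were called higher, where 1069 of 15693 genes were.

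In pEpiLC against EpiLC, 2 of these 16 genes were called higher and 1 lower, against 7.71% and 8.13% of all genes. Epha2, an ephrin receptor, had 329.9, 214.1 and 180.4 CPM in pEpiLC and rose by 1.89 from EpiLC (adjusted p = 0.000625) and by 2.58 from aEpiLC (adjusted p = 0.000448), or 1.60 and 2.29 without pEpiLC replicate 1. Egr3 was at 0 to 0.189 CPM in EpiLC and 0.695 to 1.53 CPM in pEpiLC (adjusted p = 0.00607), close to the limit of detection. Egr3 passed the filter on low counts only where pEpiLC was compared, so its call is no support for this list. Ier3 fell in pEpiLC by 1.54 from EpiLC (adjusted p = 0.0104) and by 1.90 from aEpiLC (adjusted p = 0.0270), the latter with an adjusted p of 0.0793 to 0.108 when any 1 of pEpiLC replicate 3 and aEpiLC replicates 2 and 3 was left out. Jun fell by 1.09 from aEpiLC (adjusted p = 0.0173), which was under the 2-fold limit without pEpiLC replicate 1 (-0.91) and had an adjusted p of 0.0674 and 0.0732 without aEpiLC replicates 2 and 3. In all, 1 gene of this list was called higher and 2 lower in pEpiLC than in aEpiLC, against 2.55% and 4.74% of all genes. The median of the list was 0.34, -0.0098 and -0.21 in the 3 comparisons.

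Of 10 other ETS factors and repressors of ERK targets, none was called in aEpiLC against EpiLC or in pEpiLC against aEpiLC, by edgeR's quasi-likelihood test or DESeq2. At an unadjusted p below 0.05, 3 were higher and 3 lower in the former comparison and 1 was higher in the latter. The 0 higher in aEpiLC became 1 without aEpiLC replicate 1 (Elk3, 1.002), aEpiLC replicate 2 (1.09) or EpiLC replicate 2 (1.11), against 7.25% of all genes called higher and 5.24% lower with all libraries (7.29% in either direction in pEpiLC against aEpiLC). In pEpiLC against EpiLC, Ets1 (1.79, adjusted p = 0.00761) and Elk3 (1.48, adjusted p = 0.0265) rose and none fell, against 7.71% and 8.13% of all genes, with 0 lower also by DESeq2 and 2 lower at an unadjusted p below 0.05. Ets1 had 16.7, 6.43 and 7.58 CPM in pEpiLC, and its change was 1.25 without replicate 1. Elk3 was low, with 5.004, 1.91 and 1.98 CPM in pEpiLC, and its call was lost without pEpiLC replicate 1 (0.88) or without any 1 of the EpiLC libraries. The median log2 fold change of the 10 was 0.048, 0.25 and 0.12.

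**Figure D4:**
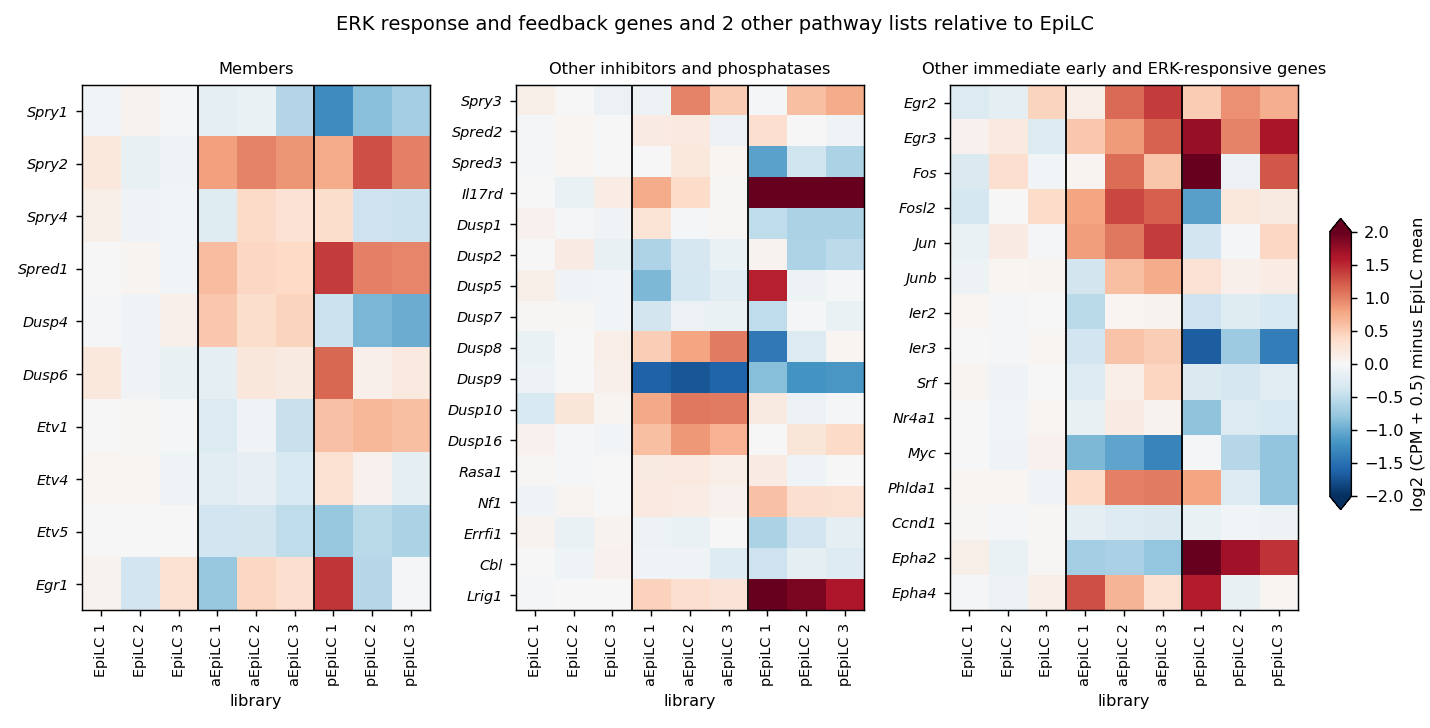
Difference of log2(CPM + 0.5) from the EpiLC mean (colour, cut at -2 and 2) for the 10 ERK response and feedback genes, 17 other inhibitors and phosphatases and 15 other ERK-responsive genes (rows) in the 9 libraries (columns); Fosb and Fosl1, under 1 CPM in each state, are left out. Il17rd and Lrig1 are high in all pEpiLC libraries, Dusp9 is low in all 6 later ones, and pEpiLC replicate 1 differs from replicates 2 and 3 for Egr1 and Dusp6.

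Of 6 FGF ligands and receptors picked by name, 1 was called higher and 3 lower in aEpiLC than EpiLC (7.25% and 5.24% of all genes). In pEpiLC against EpiLC 2 were called higher and 2 lower (7.71% and 8.13%), and against aEpiLC 1 higher and 2 lower (2.55% and 4.74%). Fgfr1 was called in none of the comparisons. The call of Fgf5 in pEpiLC against EpiLC (1.0001) was lost in 6 of 13 alternatives. Fgf4 had 88.5 to 107.8 CPM in EpiLC, 28.3 to 40.0 CPM in aEpiLC and 1.62 to 5.93 CPM in pEpiLC, Fgf8 had 2.42 to 3.08, 0.138 to 0.751 and 109 to 123 CPM, and Fgf5 averaged 85.3, 114.9 and 168.0 CPM. Fgf15 averaged 44.3, 13.1 and 17.4 CPM, Fgfr1 136.7, 199.4 and 199.2 CPM, and Fgfr2 8.19, 45.3 and 4.69 CPM in EpiLC, aEpiLC and pEpiLC.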

How the data were processed

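RNA from 9 libraries (3 each of EpiLC, aEpiLC and pEpiLC) was sequenced by the authors, who used GRCm38 as the genome, STAR 2.7.9a to map and RSEM 1.3.1 to quantify. What they deposited are expected counts for each gene symbol, not normalized. RSEM shares ambiguous reads among genes, and 20.2% of values were not whole; among the 10 genes this held for Spry1 and Etv5 in 9 libraries and Etv1 in 8. The strand setting, read cleaning and gene annotation are not given in the sources used here. For the tests the expected counts were rounded.

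The software was R 4.3.3 with DESeq2 1.42.0 and edgeR 4.0.16. Each pair of states was fitted on its 6 libraries and the whole table, with TMM normalization, filterByExpr and edgeR's quasi-likelihood test. Calls required a Benjamini-Hochberg adjusted p below 0.05, taken over all genes tested, together with a log2 fold change of 1 or more in either direction. All 10 genes passed the filter in each comparison. Standard errors are the fold change divided by the root of its F value. CPM values were normalized over the 9 libraries, and levels per kb used the joined length of all annotated exons of a gene in GENCODE vM21 on GRCm38. Total counts were 20560564 to 23417917 per library. With 3 libraries against 3, an exact permutation test of a single gene cannot give a p below 0.1, so none is given.

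The text names all 10 genes, the called genes of the other pathway lists (at most 3 with the largest change per direction and comparison), the 5 genes most correlated with the mean of the 10 and with Dusp6, and 6 FGF ligands and receptors; 1 called gene of these lists is not reported here. The 10 genes, lists, motifs and tests were chosen with earlier results of these data known. The alternatives comprised DESeq2, RLE size factors, edgeR's likelihood ratio test, no filter, at least 10 counts in every library, all 9 libraries in 1 fit, the replicate number as a block, leaving out each library, and no limit on fold change. Their use for the pathway lists and their genes was added after seeing the data. The procedure was tested on simulated data. The authors' own table of differential expression, of fold changes and p-values, was not used.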

Additional observations from a re-analysis of the deposited data

Results flagged for a closer look

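The change from EpiLC differed between the later media without FGF2, by the direct test of pEpiLC against aEpiLC (edgeR's quasi-likelihood test), for 3 of the 10 ERK response and feedback genes, where 6.28% of all genes were higher and 9.30% lower by the adjusted p. Dusp4 differed by a log2 fold change of -1.22 (adjusted p = 0.00253), being 0.45 in aEpiLC and -0.74 in pEpiLC from EpiLC. Etv1 differed by 0.89 (adjusted p = 0.00220), from -0.26 in aEpiLC and 0.65 in pEpiLC. Spred1 differed by 0.66 (adjusted p = 0.0143), being higher than EpiLC in both media, with an adjusted p of 0.0735 and 0.0655 without aEpiLC replicates 2 and 3. For Dusp4 and Etv1 the aEpiLC and pEpiLC libraries lay on opposite sides of all EpiLC libraries.

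Among the other inhibitors and phosphatases the same test gave Il17rd 1.92 (adjusted p = 0.000832), Lrig1 1.87 (0.00616), Dusp9 0.59 (0.0112) and Dusp10 -0.99 (0.00694), with an adjusted p of 0.0623 for Dusp9 without aEpiLC replicate 2. Among the other ERK-responsive genes it gave Epha2 2.58 (0.000448), Jun -1.09 (0.0173) and Ier3 -1.90 (0.0270), where Jun and Ier3 lost their call without single libraries. The ligands and receptors with such a difference were Fgf8 at 8.14 (1.58e-05), Fgf4 at -3.02 (0.00300), Fgf5 at 0.55 (0.00541) and Fgfr2 at -3.27 (0.000165). The causes of these differences were not tested.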

How the results depend on the processing

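For the 10 genes, 377 of 390 alternative values over 30 comparisons of a gene between states kept their direction and their side of the limits of a call, 2 lost a call, 2 gained one and 9 turned direction, and these 13 all came from leaving out 1 library. The 1 gene called lower in pEpiLC than aEpiLC (Dusp4) was called in each alternative, and no other tool, filter or scaling changed a count of the 10 genes called with both limits. By the adjusted p alone, some did: all 9 libraries in 1 fit took Etv4 (0.130) out in aEpiLC against EpiLC and brought Spry1 (0.0232) and Etv5 (0.0289) in as lower in pEpiLC than aEpiLC, and DESeq2 (0.0258) and edgeR's likelihood ratio test (0.0358) brought in Spry1 there. With no limit on fold change, the counts higher and lower were 3 and 3 in aEpiLC against EpiLC, 3 and 3 in pEpiLC against EpiLC, and 2 and 1 in pEpiLC against aEpiLC. Leaving out each library in turn gave 0 to 1 gene higher in aEpiLC than EpiLC (1 without EpiLC replicate 1), 1 to 2 higher in pEpiLC than EpiLC (1 without pEpiLC or EpiLC replicate 2) and 0 to 1 lower in pEpiLC than EpiLC (1 without pEpiLC replicate 3). Turned directions were Egr1 in aEpiLC against EpiLC (-0.13 without aEpiLC replicate 2, -0.077 without aEpiLC replicate 3, -0.11 without EpiLC replicate 2, with leave-one-out values up to 0.37), Spry4 in pEpiLC against EpiLC (0.03 and 0.045 without pEpiLC replicates 2 and 3, down to -0.40) and, without pEpiLC replicate 1, Etv4 (-0.017, up to 0.23) and Egr1 (-0.28, up to 0.89) in pEpiLC against EpiLC. The others were Spry2 (-0.020 without pEpiLC replicate 2, up to 0.26) and Egr1 (-0.36 without pEpiLC replicate 1, up to 0.81) in pEpiLC against aEpiLC, and none of the 9 had been called; the cause was not tested. Over all genes, counts called moved by over 1.5 times with at least 10 counts in every library (488 against 802 lower in aEpiLC than EpiLC, 801 against 1243 lower in pEpiLC than EpiLC; fewer genes tested) and, in pEpiLC against aEpiLC, without aEpiLC replicates 1, 2 or 3 (252, 180 and 201 against 387 higher, 396, 334 and 382 against 721 lower). Without pEpiLC replicates 1, 2 or 3, which leaves as many libraries, 389, 419 and 396 were higher and 759, 632 and 624 lower. The cause of this difference was not tested. For the other named genes 583 of 620 values kept their call and none turned, and for list counts 281 of 312 stayed within 1.5 times. The sources used here do not say whether replicate numbers pair libraries, and the main fit did not pair them. Deviations of same-numbered libraries correlated at -0.0601 to 0.0211 (EpiLC and aEpiLC), 0.0153 to 0.0338 (EpiLC and pEpiLC) and 0.0622 to 0.172 (aEpiLC and pEpiLC). In these pairs of states 2, 5 and 6 of 6 libraries correlated best with their own number. A shared batch by number was tried only as the replicate block. With the replicate block, counts of the 10 genes were 0 and 0, 2 and 0, and 0 and 1, as without it, and counts over all genes were 1094 and 784, 1099 and 1200, and 394 and 729. For Dusp6 in pEpiLC against EpiLC the replicate block gave 0.51 with an adjusted p of 0.0399, below the p limit that its value without the block had missed, and under 2-fold.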
